A study of Rattus norvegicus with 27 samples.

Results

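Plaat3 (NCBI gene ID 24913; earlier symbols Pla2g16, Hrasls3 and Hrev107) lies on rat chromosome 1 and was 1 of the 36865 rows of the count table. It was chosen by its measured read counts, which fell into distinct states between individual rats, and libraries with under 50 normalized counts were set apart from the rest. By this rule 5 of the 27 libraries were low in Plaat3 and 22 were not. These sets were formed from the measured level of 1 gene, so they are not groups of the study design, and the level of Plaat3 itself is described below without a test. Which other genes, and which neighbors of Plaat3 on its chromosome, differed with it was then tested over all genes.

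All 27 libraries came from adult male Wistar rats, an outbred strain, and each was bilateral medial prefrontal cortex (mPFC) tissue from 1 animal. The rats had passed through a repeated battery of anxiety tests (elevated plus-maze, light-dark box and open field), and tissue was taken in a resting state, so there was no untreated control group and no manipulation of Plaat3. The labels carry "Learned helplessness" as the treatment tag, which the study's methods do not describe for these rats. Anxiety scores of single rats were not used here. Between 4907255 and 12771309 reads per library were counted on genes (median 8168801), and the 11 libraries numbered from 32 were sequenced more deeply as a set than the 16 numbered up to 31, so values are also given within these blocks. The male Wistar rats from which these 27 were chosen formed 2 cohorts, and the labels do not say whether the library numbers follow cohort, sequencing run or neither. The neuronal marker Snap25 was at 19462 or more normalized counts in every library, which matches the labelled tissue, and the summed choroid plexus markers were at 18.9 or fewer.

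PLAAT3 belongs to the phospholipase A and acyltransferase family. Enzymes of this family cleave an acyl chain from glycerophospholipids, and some of them can pass the chain on to phosphatidylethanolamine, which gives N-acylphosphatidylethanolamine, the precursor of the N-acylethanolamine lipid mediators. PLAAT3 is best known from white adipose tissue, where it releases fatty acids from phospholipids, and from the lens, where it takes part in the breakdown of organelle membranes. Neither role had a counterpart measured here, since only RNA was counted in bulk tissue. In such tissue fewer cells expressing a gene and less RNA per cell cannot be told apart.

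The RefSeq sequences before the start of Plaat3 and of LOC100912041, the gene that later gave the smallest p of all other genes, are shown because these are the transcripts on which the results turn. Both are on the plus strand of chromosome 1 in the GRCr8 assembly, Plaat3 at chr1:214211629-214211754 and LOC100912041 at chr1:215048085-215048334, and both end at the base before the annotated start. For Plaat3 the window is 126 bases long and for LOC100912041 it is 250 bases long. Both strands were searched for 3 short motifs, and capitals mark their matches. The GC box was searched as GGGCGG. For the TATA box the letters were TATAAA. The remaining motif was CCAAT, and none of them overlapped another.
Plaat3: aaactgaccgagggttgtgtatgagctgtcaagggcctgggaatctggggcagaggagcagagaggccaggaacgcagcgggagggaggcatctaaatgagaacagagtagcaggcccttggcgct
LOC100912041: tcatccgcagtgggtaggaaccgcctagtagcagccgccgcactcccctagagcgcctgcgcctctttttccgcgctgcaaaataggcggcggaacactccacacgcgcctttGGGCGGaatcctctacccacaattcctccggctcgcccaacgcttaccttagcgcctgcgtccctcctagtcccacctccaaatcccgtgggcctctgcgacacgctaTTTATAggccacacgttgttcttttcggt
None of the 3 motifs was found in the Plaat3 window. For comparison, promoter windows that open 250 bases before a start were cut to their first 126 bases. These held the GC box in 13.4%, the CCAAT motif in 17.9% and the TATA box in 6.59% of 33469 promoters. Such a stretch stops short of the start, whereas the Plaat3 window runs up to its annotated start, so the shares are not a matched background. The LOC100912041 window held 1 GC box on the printed strand and 1 TATA box on the other strand, motifs that 30.5% and 12.9% of promoters held within 250 bases. These matches describe letters only, and an absent motif says nothing of the factors that bind there.

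In the 5 low libraries Plaat3 stood at 16.8 normalized counts in library 32, 19.2 in library 52, 20.6 in library 9, 22.7 in library 54 and 29.4 in library 6. These values rested on 24, 25, 15, 27 and 17 reads. The 22 other libraries ran from 151 (library 22) through a median of 329 to 693 (library 3). No library lay between 29.4 and 151, the values just inside and just outside the threshold, a step of 5.14-fold. The means were 21.7 ± 4.79 (SD, n = 5) and 321 ± 120 (SD, n = 22) normalized counts, a ratio of 14.8, and the ratio of the medians was 16. The transcript was not absent from the low libraries, as every one of them held more than the 3 reads taken as the floor of detection.

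Each of these values carries counting error. In CPM, reads scaled to the same total in each library, Plaat3 in library 6 was at 3.46, with a 95% Clopper-Pearson interval of 2.02 to 5.55, and in library 22 it was 18 CPM with an interval of 15.2 to 21. Within the low libraries the lowest, library 32 (1.96 CPM, interval 1.26 to 2.92), and the highest, library 6, had overlapping intervals. These intervals cover counting error alone, as reads without molecular identifiers need not be independent molecules.

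**Figure D1:**
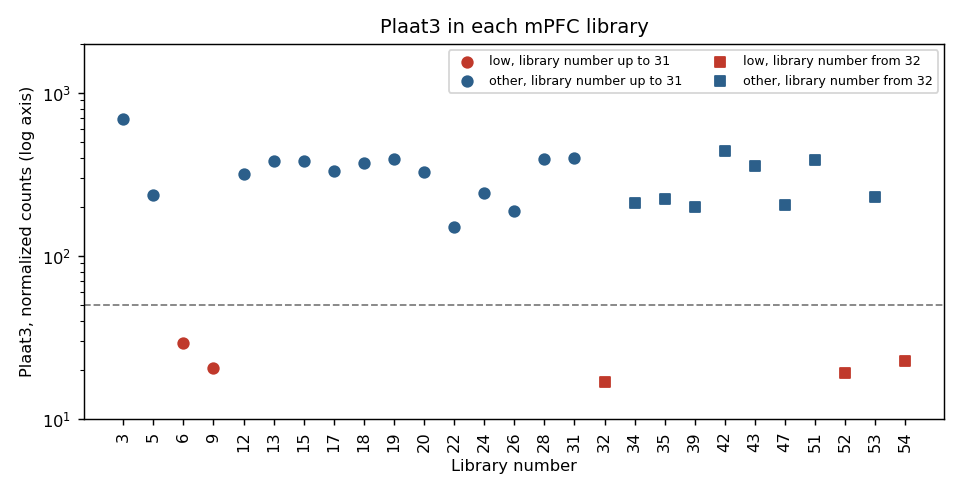
Normalized counts of Plaat3 (log axis) in each library, ordered by library number, with 1 point per rat, low libraries in red, the others in blue, circles for library numbers up to 31, squares for numbers from 32 and the threshold of 50 as a dashed line. The 5 low libraries sit between 16.8 and 29.4 and the other 22 between 151 and 693, with no library between.

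The low libraries were spread over both blocks. Of the libraries numbered up to 31, 2 of 16 were low, and of those numbered from 32, 3 of 11. The low libraries averaged 25 ± 6.25 (SD, n = 2) in the first block and 19.6 ± 2.97 (SD, n = 3) in the second. The highest low and the lowest other library were at 29.4 and 151 in the first block and at 22.7 and 201 in the second, a separation that the rule itself sets. The other libraries averaged 344 ± 129 (SD, n = 14) and 282 ± 96.6 (SD, n = 8).

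The 22 other libraries were not uniform either. With at least 3 libraries kept on each side, their widest step lay between 243 and 320 normalized counts, a ratio of 1.32, with 9 libraries below it and 13 above it. Below this step were 4 libraries of the first block and 5 of the second, and above it 10 and 3. Library 3 stood at 1.57 times the next highest library. The step at 1.32-fold was far smaller than the one at 5.14-fold, and no test was applied to either.

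A step of this size was rare among the genes of these libraries. For each of the 9846 genes whose mean normalized count was 50 or more, the largest gap between neighboring libraries was taken on the log2(normalized count + 1) scale, again with at least 3 libraries on each side. The median gap was 0.08 and the 99th percentile 0.41, while Plaat3 had a gap of 2.32. A gap over 1 was reached by 12 genes. First was a row without a symbol (NCBI gene ID 681419), at 6.85, followed by Plaat3. Slc24a5, a potassium-dependent sodium-calcium exchanger known from pigment cells, followed Plaat3 at 2.17, and Slc22a6, an organic anion transporter, came next at 1.46.

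The steps of these genes did not part the rats as Plaat3 did. The row without a symbol had 9 libraries under its gap, of which 3 were low in Plaat3. Slc24a5 had 24 libraries under its gap, 4 of them low in Plaat3. Slc22a6 had 10, of which only 1 was low in Plaat3, although this gene lies on the same chromosome near Plaat3.

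**Figure D2:**
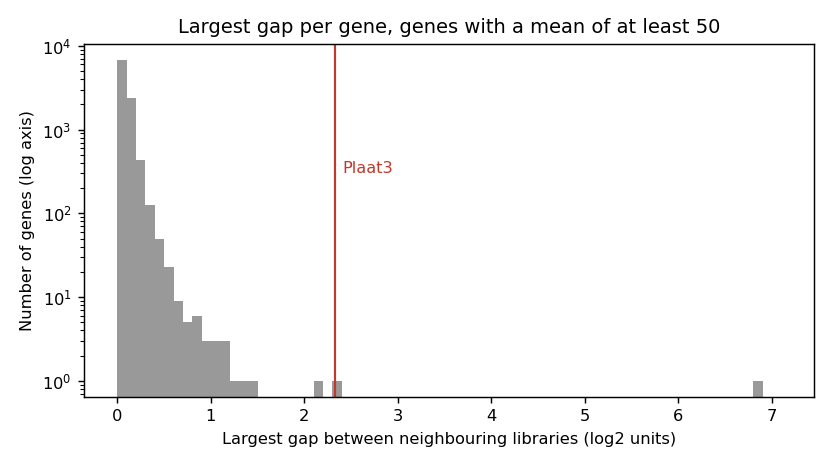
Number of genes (log axis) by their largest gap between neighboring libraries in log2 units, for genes whose mean normalized count was 50 or more. Plaat3, marked in red at 2.32, lies beyond all but 1 of the 9846 genes, whose median gap is 0.08.

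How many other genes differed between the sets was counted over the whole table. In edgeR's quasi-likelihood test of the 5 low against the 22 other libraries, 0 of 11963 genes other than Plaat3 passed an adjusted p of 0.05 (0%), and 330 (2.76%) had an unadjusted p under 0.05, of which 175 (1.46%) were lower and 155 (1.3%) higher in the low libraries. The 330 depended on the libraries used. Leaving out library 9 gave 620 genes at an unadjusted p under 0.05, the libraries numbered from 32 alone gave 897, and a Plaat3 threshold of 25 gave 498. Each of these fits had 0 genes past the adjusted threshold in edgeR. They filtered their genes anew, and their shares over all genes are not given here. DESeq2's Wald test called 1 gene of 15075 (0.00663%), with 391 (2.59%) at an unadjusted p under 0.05. With the log2 level of Plaat3 over all 27 libraries in place of the sets, edgeR called 1 gene of 11963 (0.00836%), with 458 (3.83%) at an unadjusted p under 0.05. With the library-number block in the fit of the sets, 0 genes (0%) passed and 299 (2.5%) had an unadjusted p under 0.05. Among genes averaging 10 or more normalized counts, none had all of its low libraries below all other libraries (0 of 11703, 0%), and none had them all above (0%).

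The smallest p belonged to LOC100912041, a long non-coding RNA, which lies on the same chromosome as Plaat3. With the block as a term it came second, after RT1-M6-2 on chromosome 20 (unadjusted p = 1.59e-04 and 1.21e-04 in edgeR). Its level was 274 normalized counts in library 32, 296 in library 6, 317 in library 52, 339 in library 9 and 360 in library 54. The other libraries ran from 307 through a median of 513 to 836. All low libraries thus lay in the lower part of the range, but the sets overlapped. The low library was the lower one in 96.4% of the 110 pairs of a low and another library, the highest such share of the 11703 genes. The means were 317 ± 33.7 (SD, n = 5) and 521 ± 122 (SD, n = 22), a log2 difference of -0.72 ± 0.16 (SE). In edgeR the unadjusted p was 8.37e-05 and the adjusted p 0.501. The adjustment included Plaat3, whose own p is fixed by the rule and ranked first, which lowers the adjusted p of the other genes.

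LOC100912041 was also the 1 gene called by DESeq2 and by the fit of the continuous level, in DESeq2 at a log2 difference of -0.72 and an adjusted p of 0.0166. Over the alternatives of the comparison its adjusted p ran from 9.39e-04, with the level of Plaat3 as a continuous covariate over all 27 libraries, to 1, without library 32. The difference stayed between -0.67 and -0.77 in every fit of 2 sets. In the libraries numbered up to 31 the 2 low libraries (296 and 339) lay below the 14 others (358 to 836), and in those from 32 the 3 low libraries (274 to 360) overlapped the 8 others (307 to 716). The log2 differences within the blocks were -0.72 ± 0.23 (SE) and -0.69 ± 0.20 (SE). LOC100912041 spans 7 small nucleolar RNA genes in RefSeq, among them Snord26, Snord27 and Snord30, none of which had a row of its own. Whether strand was used in counting is not given in the sources used here.

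**Figure D3:**
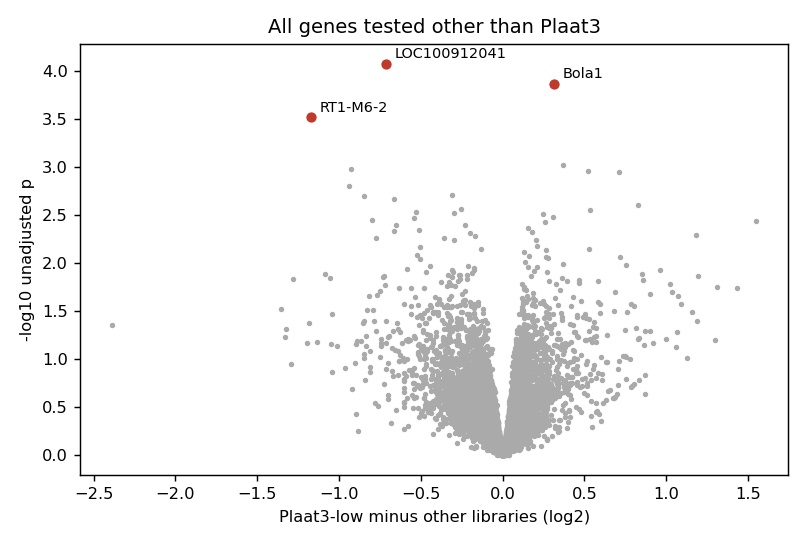
Difference between Plaat3-low and other libraries (log2, horizontal) and -log10 of the unadjusted edgeR p (vertical), with 1 point per gene tested other than Plaat3 and the 3 genes with the smallest p in red. LOC100912041 lies highest at a log2 difference of -0.72, and no gene passes an adjusted p of 0.05.

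The genes most like Plaat3 in their order of libraries were ranked by the share of the 110 pairs in which the low library was the lower one. After LOC100912041 came Klhl15, an adaptor of a ubiquitin ligase (93.6% of pairs, 7.82 against 14.7 normalized counts), and RT1-M6-2, a class I gene of the rat major histocompatibility complex (91.8%). RT1-M6-2 stood at 6.86 in library 9, 11.5 in library 52, 17.3 in library 6, 21.1 in library 54 and 37.9 in library 32, against 18.9 to 63.1 (median 48.4) in the others. Libraries 32 and 54 thus lay within the range of the others. Its log2 difference was -1.17 ± 0.29 (SE), with an unadjusted p of 3.05e-04 and an adjusted p of 0.912 in edgeR, and its counts are uncertain because class I genes of this complex are close paralogs.

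The other genes on this side had shares of 90% to 90.9%. They were Mrap2, an accessory protein of melanocortin receptors (171 against 212 normalized counts), Mmp11, a matrix metalloproteinase (12.5 against 20.2), the chloride channel Cftr (8.81 against 15.9), Gimap5, a GTPase of lymphocytes (10.8 against 16.9), Bscl2, which encodes the lipid droplet protein seipin (604 against 680), Thg1l (42.6 against 53.7) and Igbp1b (14.2 against 19.5). Klhl15, Mmp11, Cftr, Gimap5 and Igbp1b were thinly counted genes, with means under 25 normalized counts in both sets. None passed the edgeR test.

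In the opposite direction the first gene was Bola1, which encodes a mitochondrial protein linked to iron-sulfur clusters. It stood at 178, 192, 194, 205 and 242 normalized counts in libraries 6, 9, 52, 32 and 54, against 141 to 199 (median 161) in the others, and the low library was the lower one in 5.45% of pairs. Libraries 32 and 54 lay above the range of the others. Its log2 difference was 0.31 ± 0.07 (SE), with an unadjusted p of 1.36e-04 and an adjusted p of 0.542 in edgeR. Behind it were Mas1, a receptor of angiotensin-(1-7), at 152 against 118 normalized counts, and Slc27a3, of the fatty acid transport and acyl-CoA synthetase family, at 188 against 158. Mcat, a malonyltransferase of mitochondrial fatty acid synthesis, stood at 230 against 207. Asrgl1, Chchd5, Pus3, Pdgfrl, Pxk and Dohh completed the 10, with shares between 9.09% and 11.8%, and their log2 differences lay between 0.13 (Dohh) and 0.71 (Pdgfrl). None of the 10 passed the edgeR test.

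On the chromosome, the genes next to Plaat3 gave little to compare. On 1 side the nearest rows were Cited1l1 and Cdca5l1, both at 0 reads in all 27 libraries under the IDs that carry these names, and then Atl3, in 3rd place, which shapes the endoplasmic reticulum. On the other side Lgals12, a galectin of adipocytes, reached at most 2 reads in a library, Plaat5, a family member, at most 7, and UST4r, a transporter-like gene, at most 1. The non-coding LOC102551693, beyond Atl3, and the pseudogenes Dnajb6-ps10 and Slc22a27l-ps1, between Plaat5 and UST4r, had 0 reads in all libraries. Atl3 was at 45.4 against 53.4 normalized counts, a log2 difference of -0.27 ± 0.15 (SE) with an unadjusted p of 0.0866 in edgeR, and its sets overlapped (35.4 to 59 against 32 to 72.1). Rtn3, a reticulon and the fifth row on that side, was at 17709 against 18114, a log2 difference of -0.03 ± 0.06 (SE). Atl3 and Rtn3, the only ones of the 5 nearest rows on each side that could be tested, thus had overlapping sets, with Rtn3 at 17446 to 18135 in the low and 16025 to 21141 in the other libraries.

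Among the 25 rows on each side, 38 of the 50 could be tested and 0 passed the adjusted threshold in edgeR, while DESeq2's Wald test and edgeR's fit of the continuous Plaat3 level each called 1, LOC100912041. The other 12 had under 10 reads in each library, and 7 of these had none. An unadjusted p under 0.05 was reached by 3 of the 38 (7.89%), beside 2.76% over all genes, and all 3 were lower in the low libraries and on the same side. They were LOC100912041 in 12th place, Hnrnpul2 in 23rd and Bscl2 in 24th place from Plaat3. With the continuous Plaat3 level 5 neighbors reached it beside 458 genes (3.83%). Without library 9 there were 4 beside 620 genes, and in the libraries from 32 alone 5 beside 897. These last fits filtered their genes anew and have no share here, so their counts cannot be set against a background. The median log2 difference of the 38 was -0.0019 beside -0.0025 over all genes, with 20 below 0 and 18 above. Among the 10 rows on each side, 0 of 9 tested reached an unadjusted p under 0.05, and among the 50 on each side, 4 of 71 (5.63%) did, the added gene being Asrgl1, higher in the low libraries.

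Bscl2 stood at 567 normalized counts in library 9, 581 in library 52, 595 in library 6, 636 in library 54 and 643 in library 32, against 586 to 814 (median 678) in the others. Its log2 difference was -0.17 ± 0.06 (SE), with an unadjusted p of 0.00521 in edgeR. The RefSeq gene overlaps Gng3, which has its own row. Hnrnpul2, an RNA-binding protein, stood at 1292 in library 54, 1413 in library 52, 1480 in library 32, 1611 in library 9 and 1666 in library 6, against 1339 to 2091 (median 1735) in the others. Its log2 difference was -0.21 ± 0.08 (SE), with an unadjusted p of 0.0107. Both genes overlapped between the sets, and Hnrnpul2 also differed between the blocks, at 1822 ± 136 (SD, n = 14) in the other libraries up to 31 and 1554 ± 119 (SD, n = 8) in those from 32.

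The rows between Plaat3 and LOC100912041 included the organic anion transporters Slc22a8 and Slc22a6, the muscarinic receptor Chrm1 and Slc3a2, the heavy chain of an amino acid transporter. Slc22a6 had the widest spread of the 38, at 11.8 to 153 normalized counts in the low and 3.18 to 249 in the other libraries, and a log2 difference of 0.54 ± 0.62 (SE). Slc3a2, the nearest row before LOC100912041, was at 1784 against 1802, a log2 difference of -0.02 ± 0.06 (SE). Wdr74, behind LOC100912041, was at 247 against 249, a log2 difference of -0.01 ± 0.07 (SE). The nearest tested genes on either side of LOC100912041 thus had differences between the 2 sets smaller than their SE.

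**Figure D4:**
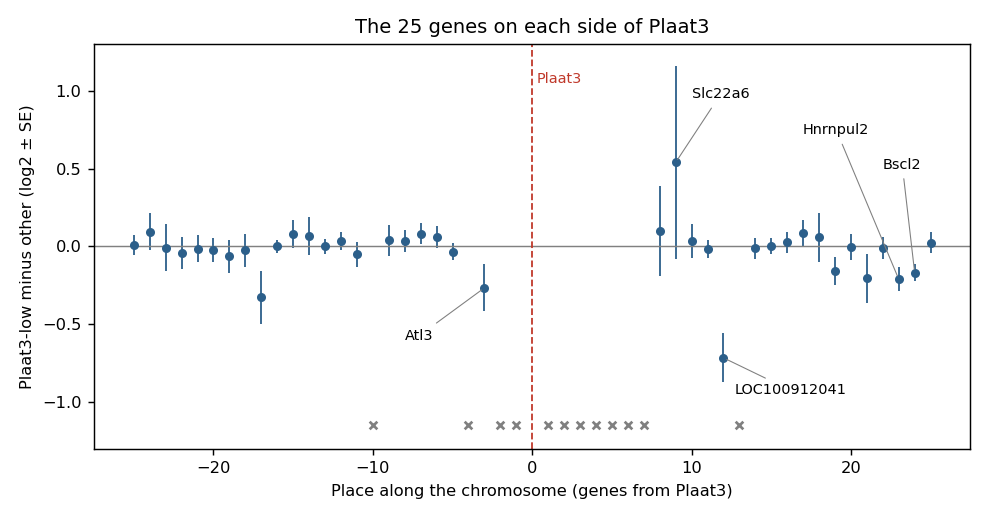
Difference between Plaat3-low and other libraries (log2 ± SE) for the 25 rows on each side of Plaat3 in the GRCr8 gene order, with crosses for the 12 rows that could not be tested. LOC100912041, in 12th place, lies lowest at -0.72, while the median of the 38 genes tested is -0.0019.

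Within the 22 other libraries the level of Plaat3 varied as well, and this variation was not used to form the sets. A fit of this kind was added after the data had been seen. LOC100912041 again had the smallest p of all genes, and its level rose by 0.25 ± 0.05 (SE) log2 units per SD of log2 Plaat3, with an unadjusted p of 1.95e-05 but an adjusted p of 0.116 in edgeR. No gene of 11973 passed the adjusted threshold (0%), while 1566 (13.1%) had an unadjusted p under 0.05. DESeq2 called 3 genes of 14993 with a p-value (0.02%), with 1593 (10.6%) at an unadjusted p under 0.05. Not all of the 14993 received an adjusted p, because DESeq2 filters on mean counts, so the share of 0.02% is over more genes than could be called. The 3 genes called were LOC100912041, at an adjusted p of 0.00345, the transcriptional corepressor Runx1t1, at -0.18 log2 units per SD, and P4ha3, a collagen prolyl hydroxylase subunit, at -0.31.

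These values depended on library 3, the highest in Plaat3. Without it 358 genes in place of 1566 had an unadjusted p under 0.05, and the slope of LOC100912041 was 0.20 per SD with an unadjusted p of 5.56e-04 and an adjusted p of 0.831 in edgeR, which placed it 7th of all genes by p rather than first. The 10 highest genes of library 3 took 3.82% of the reads, the largest share of any library, where the rest had 2.71% to 3.27%. With the block as a term the slope was 0.26 and the adjusted p 0.140. Of the 38 neighbors tested, 8 had an unadjusted p under 0.05 in the fit with library 3, beside the 13.1% over all genes. Bscl2 was among these neighbors, at 0.08 ± 0.02 (SE) log2 units per SD (unadjusted p = 0.00125 in edgeR), and Hnrnpul2 was not (0.05 ± 0.03, unadjusted p = 0.170). Wdr74, behind LOC100912041, was also among them, at 0.08 ± 0.03 (unadjusted p = 0.00494). LOC100912041, Fkbp2, Cox8a and Polr2g likewise rose with Plaat3, while Flrt1 (-0.14) and Chrm1 (-0.12) fell. All these slopes include library 3, where Bscl2 was also highest, at 814 normalized counts.

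Per library, log2 levels of LOC100912041 and Plaat3 over the 22 other libraries had a Pearson's r of 0.729 (permutation p = 8e-05, adjusted p = 6.4e-04 over 8 such tests) and a Spearman's rho of 0.630 (permutation p = 0.0021, adjusted p = 0.0084). Without libraries 3 and 22, the farthest from the median of Plaat3, r was 0.588 (permutation p = 0.00712, adjusted p = 0.0142) and rho 0.522 (permutation p = 0.0199, adjusted p = 0.0265). In the 14 libraries up to 31, r was 0.724 (permutation p = 0.0048, adjusted p = 0.0128) but rho was 0.473 (permutation p = 0.0914, adjusted p = 0.0914). In the 8 libraries from 32, r was 0.770 (exact permutation p = 0.0193, adjusted p = 0.0265) and rho 0.762 (exact permutation p = 0.0368, adjusted p = 0.0420). All tests were two-sided. The pair was looked at because LOC100912041 had the smallest p in the fits above, so these p-values describe a pair picked for a small p.

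**Figure D5:**
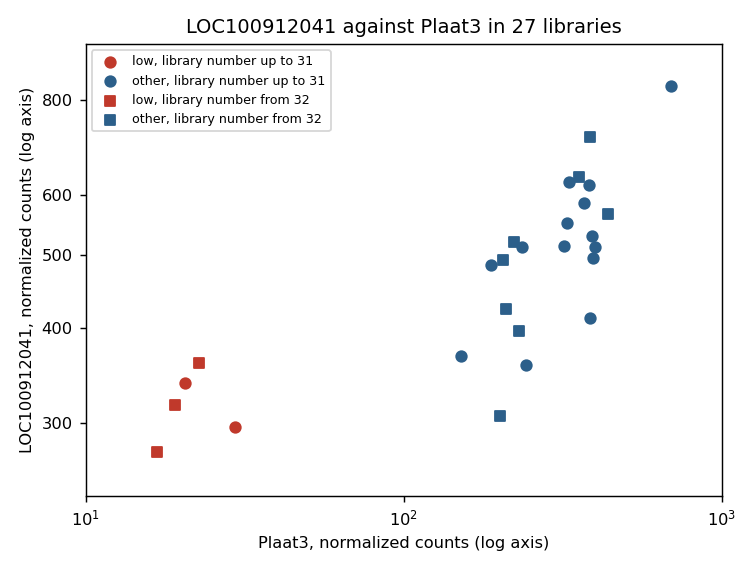
LOC100912041 against Plaat3 in normalized counts (both axes log), with 1 point per library, low libraries in red, the others in blue, circles for library numbers up to 31 and squares for numbers from 32. The 5 low libraries lie at 274 to 360 of LOC100912041, at the lower end of the range of 307 to 836 that the other libraries span.

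Of the family, Plaat1 was the only other member counted at a level that could be tested. It lies on another chromosome and stood at 83.7 to 124 normalized counts in the low and 81.8 to 145 in the other libraries. Its mean was 106 ± 15.1 (SD, n = 5) against 106 ± 16.4 (SD, n = 22), a log2 difference of -0.00094 ± 0.11 (SE), whose sign changed between fits. Plaat5 had between 0 and 7 reads per library. No row was matched to Plaat2 or Plaat4 by symbol, and they were not analysed here.

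No gene of the surrounding lipid pathways passed the test between the sets. Of 8 genes of N-acylethanolamine synthesis and breakdown, 5 could be tested and 0 had an unadjusted p under 0.05 in either direction, beside 2.76% over all genes, a share at which lists of this size would seldom hold 1, with a median log2 difference of -0.03. Napepld, the phospholipase D that releases N-acylethanolamines, was at 53.6 against 56.0 normalized counts, and Naaa, an amidase that breaks them down, at 123 against 125. Of 18 genes of phospholipase A2 and related enzymes, 12 were tested and 0 had an unadjusted p under 0.05, with a median of -0.07. Pla2g6, a calcium-independent phospholipase A2, was at 330 against 319.

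The background of 2.76% applies to the next lists as well. Of 10 genes of lysophospholipid acyltransferases, which put acyl chains back onto lysophospholipids, 9 were tested and 0 had an unadjusted p under 0.05, with a median log2 difference of -0.03. Lpcat3 was at 307 against 323 normalized counts. Of 20 genes of ether lipid synthesis and peroxisome assembly, 19 were tested and 0 had an unadjusted p under 0.05, with a median of -0.0046. Pex19, to which PLAAT3 is known to bind, was at 529 against 551.

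Markers of cell types were also compared. Of the 13 marker lists, none had a gene that passed the adjusted threshold, and the summed level of each list overlapped between the sets. Of the 49 markers tested, 1 (2.04%, beside 2.76% over all genes), the endothelial receptor gene Flt1, had an unadjusted p under 0.05, at 730 against 854 normalized counts (p = 0.0244 in edgeR). Of the adipocyte markers Adipoq, Plin1 and Lep reached at most 3 reads in a library, and Cidec, the only 1 of 4 that could be tested, was at 5.67 against 10.5. The summed adipocyte level was 2.53 to 15.6 in the low and 0.79 to 30.7 in the other libraries. Meningeal fibroblast genes had the largest median difference of the lists with more than 1 gene tested, 0.40 on the log2 scale, but summed to 376 to 3220 in the low and 248 to 5343 in the other libraries, and the widest log2 difference among them, that of Col1a1, was 0.66 ± 0.51 (SE) with an unadjusted p of 0.211 in edgeR.

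No difference in library properties was detected between the sets. Low libraries had 8883491 reads on average and the others 8776460 (exact permutation test, two-sided, p = 0.916, adjusted p = 0.916 over 4 measures). Low and other libraries had 13560 and 13544 genes with a count (exact permutation p = 0.857, adjusted p = 0.916). Ribosomal RNA took 0.0821% and 0.178% of reads (exact permutation p = 0.128, adjusted p = 0.511). The second mean was raised by libraries 12 and 20, at 0.953% and 0.782%, while the rest of that set lay at 0.0549% to 0.257%. The 10 highest genes took 2.87% of reads in the low and 2.95% in the other libraries (exact permutation p = 0.479, adjusted p = 0.916).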

How the data were processed

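Raw counts were deposited by the authors without normalization, as single reads assigned to each gene in each of the 27 libraries. The submitters' processing notes name Trimmomatic, STAR and HTSeq; versions, the genome build, the annotation and strandedness are not given in the sources used here. The paper names a NEBNext Ultra II kit and the labels a TruSeq kit. Of 36865 rows, 27825 were named from RefSeq (GRCr8), which also gave the gene order; its coordinates were used only for the promoters. Rows whose ID is not in that list stayed unnamed, so a gene whose named row is at 0 reads, or that was left untested, may have been counted under another ID. A gene annotated at more than 1 locus has a row for each locus, and counts of paralogs and overlapping genes are uncertain.

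Normalized counts were counts divided by DESeq2 1.42.0 size factors over all genes. Sets were compared with edgeR 4.0.16 (quasi-likelihood test, TMM, filterByExpr, Benjamini-Hochberg over all 11964 genes tested, adjusted p under 0.05; SE from the log2 difference and F), checked on simulated counts. Both sets were single rats, 1 library each. Plaat3 stayed in every adjustment, in edgeR and in DESeq2. Its own p is fixed by the way each fit was formed, and this lowers the adjusted p of the other genes. Neighbors were rows in RefSeq order. Correlations used 100000 permutations of log2(normalized count + 1), exact for under 10 libraries. Shares of reads have 95% Clopper-Pearson intervals, and the floor was 3 counts. Python 3.11.15 was used with matplotlib 3.10.9, pandas 2.3.3, scipy 1.17.1 and numpy 2.4.6, and R 4.3.3 with limma 3.58.1.

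Genes named are the Plaat family, the 5 nearest neighbors on each side, the 10 genes with the highest share of pairs in each direction, called genes and markers; others, among them neighbors further away, list members that were not called and genes with wide gaps, were named after their values were seen. Plaat3, the threshold and all gene lists were chosen with earlier results of these data known. Alternatives covered scaling, filter, DESeq2's test, blocks, thresholds, single libraries and a continuous covariate.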

Additional observations from a re-analysis of the deposited data

Results flagged for a closer look

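Among the 24 genes named for their likeness to Plaat3, as family members or as neighbors, 1 had a library far from the others of the low set. Slc27a3 stood at 164 normalized counts in library 6, while the other 4 low libraries lay between 189 and 197, a gap of 0.764 of the range where 0.71 is the 95% critical value for 5 samples. Chance alone gives such a gap in about 1 of 20 groups.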

How the results depend on the processing

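The 5 low libraries were the same under TMM scaling and total counts. The count of 0 genes, and of 0 neighbors, differing between the sets became 1 in each case with DESeq2's Wald test and 1 with Plaat3 as a continuous covariate, and the 1 was LOC100912041, at -0.72 and, per log2 unit of lower Plaat3, -0.21. Among the 22 other libraries the count of 0 became 3 with DESeq2, where the slope of LOC100912041 was 0.25. The cause was not tested. The sign of Plaat1 changed, at 0.00039 with DESeq2 size factors, 0.0049 without a filter, 0.0042 with DESeq2's test, 0.038 in libraries from 32 alone, 0.00082 with the covariate, and without single low libraries it ran from -0.073 to 0.066. With 5 low libraries of 15 to 27 Plaat3 reads, differences among them lay within counting error. No paired analysis was possible because all libraries form 1 group of single rats, each with its own number.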
